A study of Mus musculus with 9 samples.

Results

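The genes of mTOR signalling and autophagy were measured in brain microglia of 9 mice that modelled Alzheimer's disease. The list named 46 genes of the mTOR complexes, their regulators and energy sensors, and the autophagy machinery. Of these, 44 had a probe set annotated to that gene alone, out of 19938 genes so covered. The other listed genes, Rps6kb1 and Optn, were not analysed here. Membership rests on the gene's name, and no difference between groups entered the rule. All 44 lay above the level below which genes were not tested (a mean log2 value of 5.31 over the 9 arrays), as did 10795 genes in all.

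Each mouse gave 1 microarray. All mice were 8.5 months old, carried the amyloid-driving transgenes of the 5XFAD model, and were deficient in their own TREM2, a receptor with which microglia sense lipids. The KO group expressed no human TREM2, the R47H group expressed the R47H variant of human TREM2, which is associated with raised risk of Alzheimer's disease, and the CV group expressed its common variant. Each group held 3 mice, of which mouse 1 was female and mice 2 and 3 were male, and cells were sorted from dissociated brains as CD45+ CD11b+, a gate that other myeloid cells can also enter. The group without human TREM2 is thus the reference for both human variants, and no mice with mouse TREM2 or without 5XFAD were compared here. Neither the labels nor the design text name the promoter that drives human TREM2.

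mTOR is a kinase that works in a pair of complexes. mTORC1, built around Rptor, promotes protein synthesis and holds back autophagy when amino acids, growth signals and energy are plentiful, and mTORC2, built around Rictor, acts on Akt kinases. When mTORC1 is inactive or the AMP-activated kinase is active, the ULK complex starts autophagy, in which membranes decorated with proteins of the Atg8 family enclose cargo and deliver it to lysosomes. TREM2 deficiency has been linked in earlier work on 5XFAD mice to weaker mTOR signalling and more autophagic vesicles in microglia. Most of that control is by phosphorylation and protein turnover, which arrays do not measure, and the values here are RNA levels. In sorted cells a lower content of one cell type and less RNA per cell cannot be told apart.

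Of the 10 genes listed as microglial markers 9 were measured, with P2ry12 at 10.83 to 11.38 and Tmem119 at 11.52 to 12.01 (log2). Their summed level was 14.71 to 14.80 in KO, 14.62 to 14.67 in CV and 14.73 to 14.79 in R47H, so that CV lay apart and lower. In CV minus KO 7 of the 9 were lower, 5 of them with groups that did not overlap, where 8.05% of all tested genes were lower without overlap. Ptprc was higher (0.32, limma adjusted p = 0.151). Of the 9 markers 0 were called, where 1.21% of all tested genes were. An unadjusted p under 0.05 was found for 5 of them (55.6%, against 13.2% of all tested genes). The part of this shift in the member differences that set CV apart was not tested. Markers of other cells also differed between mice. The summed level of 12 neutrophil markers was 9.74, 10.65 and 14.19 in KO mice 1, 2 and 3, 10.69 to 12.49 in R47H and 13.51 to 14.23 in CV (log2 of the sum). That of 9 oligodendrocyte markers was 9.38 to 10.18 in KO, 9.32 to 9.65 in CV and 10.42 to 10.84 in R47H. That of 7 monocyte markers was 9.15, 9.22 and 10.71 in KO mice 1, 2 and 3, 9.08 to 9.34 in R47H and 10.37 to 11.09 in CV. KO mouse 3 therefore stood apart from the other KO mice. Of the 8 astrocyte markers the summed level was 8.87 to 9.31 in KO, 8.78 to 8.91 in CV and 9.56 to 9.80 in R47H. None of the neuron markers reached the level needed for testing.

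No gene of the module passed the test in any comparison (limma, Benjamini-Hochberg adjusted p under 0.05 over all 10795 genes). In CV minus KO 0 of 44 were called, where 1.21% of all tested genes were, and 4 had an unadjusted p under 0.05 (9.09%, against 13.2% of all tested genes). In R47H minus KO 0 were called, where 0.0834% of all genes were, and 1 had an unadjusted p under 0.05 (2.27%, against 5.68%). In R47H minus CV 0 were called, where 0.797% of all genes were, and 7 had an unadjusted p under 0.05 (15.9%, against 12.4%). An F-test of any genotype difference called 0, against 1.32% of all genes, with 6 members at an unadjusted p under 0.05, where 12% of all genes were. The share at an unadjusted p under 0.05 lay below that of all genes in CV minus KO and R47H minus KO, and above it in R47H minus CV.

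The differences were small in size. The median absolute log2 difference over the 44 genes was 0.10 in CV minus KO, 0.06 in R47H minus KO and 0.09 in R47H minus CV, beside 0.09, 0.07 and 0.09 over all tested genes. In CV minus KO 22 estimates lay above 0 and 22 below, where 45% of all tested genes lay above. In R47H minus KO the numbers were 24 and 20 (49.6% above over all genes), and in R47H minus CV 23 and 21 (53.4%). The median signed difference was 0.001, 0.02 and 0.0054, beside -0.02, -0.0011 and 0.01 over all tested genes. Every member differed by less than 0.5 in all 3 comparisons, as did 97.5%, 98.9% and 97.7% of all tested genes.

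**Figure D1:**
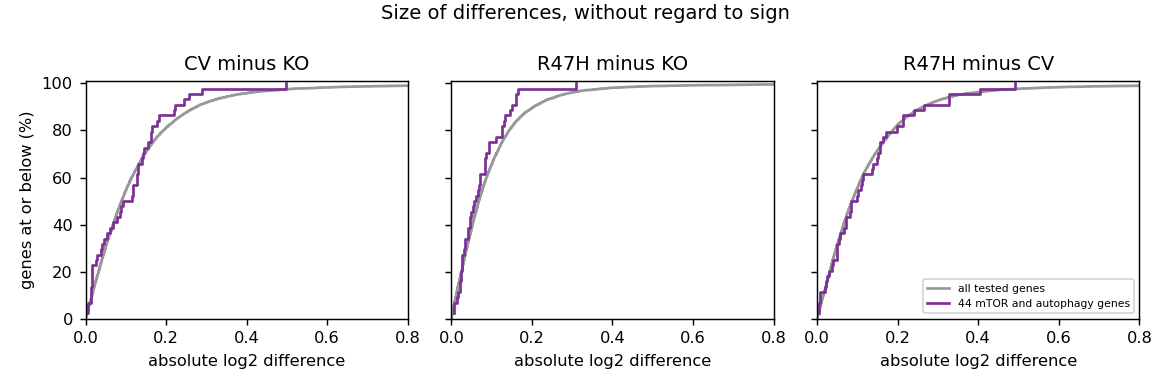
Cumulative share of genes (y axis, percent) by the absolute log2 difference between groups (x axis), for the 44 mTOR and autophagy genes (purple) and all 10795 tested genes (grey), in each of 3 comparisons. The purple line stays close to the grey one at medians of 0.10, 0.06 and 0.09 and ends below 0.5, while the grey line goes on to larger differences.

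The precision allowed a bound to be set on most genes. The 95% interval of the difference, taken gene by gene with no correction for the number of genes, had a median half-width of 0.19 log2. It lay wholly within 0.5 of 0 on the log2 scale, a 1.41-fold change either way, for 43 of 44 genes in CV minus KO, for 42 in R47H minus KO and for 40 in R47H minus CV. The exceptions were Ddit4 in all 3, Sesn2 in both comparisons with R47H, and Map1lc3a and Sqstm1 in R47H minus CV. Only Ddit4 had an interval that reached 1, a 2-fold change, which it did in CV minus KO (-1.21 to 0.22) and in R47H minus CV (-0.22 to 1.21). Equal values in several arrays, described below for Mtor, enter the spread behind these intervals, and their effect on the widths was not tested. A missed threshold does not show that groups were alike.

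**Figure D2:**
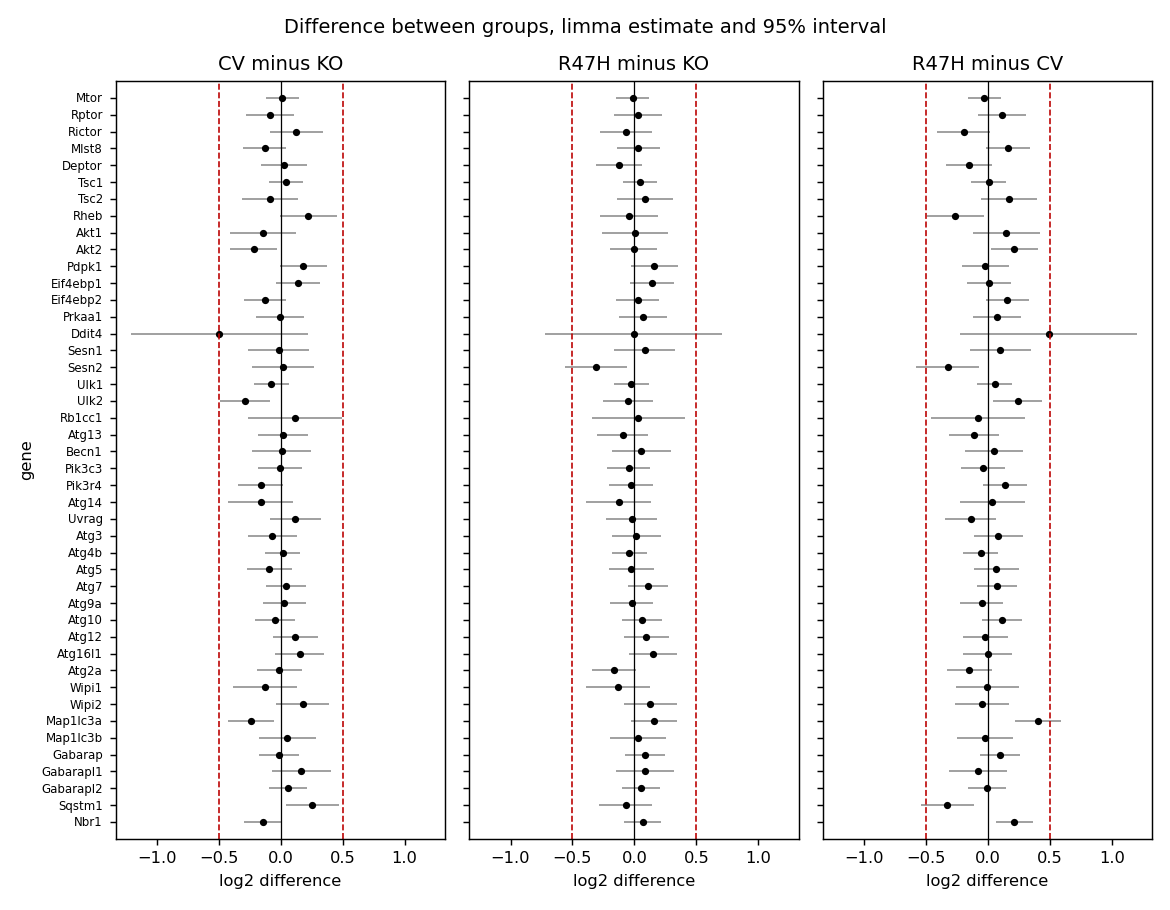
Log2 difference between groups (x axis) for each of the 44 genes (y axis, ordered by role), with points for limma's estimate and grey lines for its 95% interval, and dashed lines at 0.5 either side of 0. Nearly all intervals lie between the dashed lines, and that of Ddit4 is by far the widest.

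Among the subunits of the mTOR complexes, Mtor, the kinase itself (probe set 10510305), which is shown by mouse after its values were seen, read 7.28, 7.28 and 7.27 in KO, 7.28, 7.28 and 7.31 in CV and 7.22, 7.28 and 7.28 in R47H (log2, mice 1, 2 and 3). Its 9 values spanned 0.09, the least of the 44 genes, and its differences of 0.01 (CV minus KO) and -0.015 (R47H minus KO) had standard errors (SE) of 0.06. Equal values are partly a feature of the deposited table: 6 of the 9 arrays held the same Mtor value to the last decimal. Of the 44 genes 14 had 3 or more arrays with 1 identical value (31.8%, against 27.6% of all tested genes). Rptor, the scaffold of mTORC1, averaged 8.67 ± 0.08 in KO, 8.58 ± 0.06 in CV and 8.69 ± 0.13 in R47H (mean ± SD, n = 3). Rictor, that of mTORC2, averaged 6.55 ± 0.22 in KO, 6.68 ± 0.13 in CV and 6.48 ± 0.08 in R47H. Mlst8, a subunit of both, averaged 5.76 ± 0.03 in KO, 5.63 ± 0.13 in CV and 5.79 ± 0.03 in R47H. Deptor, an inhibitor of mTOR, lay close to the testing limit, at 5.63, 5.15 and 5.35 in KO, 5.52, 5.35 and 5.35 in CV and 5.35, 5.20 and 5.21 in R47H. For all 5 genes the groups overlapped or met at an equal value in every comparison. They only met for Mtor and Rptor in CV minus KO, and for Mtor, Mlst8 and Deptor in R47H minus CV.

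Among the switches upstream of mTORC1, Rheb, the small GTPase that activates it, read 8.76, 8.58 and 8.76 in KO, 8.80, 9.10 and 8.85 in CV and 8.48, 8.72 and 8.76 in R47H. The 3 CV mice lay above all others, the lowest of them by a narrow margin. The difference was 0.22 ± 0.10 SE in CV minus KO (limma adjusted p = 0.403) and -0.26 ± 0.10 in R47H minus CV (adjusted p = 0.343). The former was 0.14 without KO mouse 2 and 0.15 without CV mouse 2, and the latter -0.47 ± 0.30 with the oligodendrocyte score as a covariate. That score separates R47H from CV completely, so group and markers cannot be told apart in this fit. Akt2, a kinase that relays insulin and growth factor signals, read 8.86, 8.54 and 8.35 in KO, 8.51, 8.35 and 8.24 in CV and 8.72, 8.46 and 8.56 in R47H. The ranges overlapped, and in each group the female read highest. The difference was -0.22 ± 0.08 in CV minus KO (adjusted p = 0.305) and 0.21 ± 0.08 in R47H minus CV (adjusted p = 0.352). A further Akt2 probe set (10551393) gave -0.39 and 0.29. With the neutrophil or the oligodendrocyte score as a covariate CV minus KO was -0.10 or -0.13. No member passed the test of males against females in the same model, where Akt2 had the smallest adjusted p (male minus female -0.28, limma adjusted p = 0.247). This does not show that the sexes were alike.

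Pdpk1, the kinase that switches on Akt, read 7.60, 7.45 and 7.75 in KO, 7.79, 7.79 and 7.76 in CV and 7.78, 7.75 and 7.75 in R47H. The KO mice were spread and included the lowest values, while the mice of both other groups lay together. The differences were 0.18 ± 0.08 in CV minus KO (limma adjusted p = 0.403) and 0.16 ± 0.08 in R47H minus KO (adjusted p = 0.907), and both use the same KO arrays. R47H minus KO was 0.08 without KO mouse 2, 0.25 without KO mouse 3 and 0.38 ± 0.19 with the oligodendrocyte score, which separates these groups completely. Akt1, the other Akt kinase here, ran from 7.72 to 8.23 over the 9 mice. Its groups overlapped or, in R47H minus CV, met only at an equal value. Tsc1 and Tsc2, which form the complex that turns Rheb off, averaged 6.99 and 7.32 in KO, 7.03 and 7.23 in CV and 7.04 and 7.40 in R47H.

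Of the translation factors that mTORC1 phosphorylates, Eif4ebp1, a repressor of cap-dependent translation, read 7.54, 7.20 and 7.13 in KO, 7.52, 7.43 and 7.34 in CV and 7.52, 7.37 and 7.42 in R47H. The groups overlapped, with KO mouse 1 the highest of all 9. The difference was 0.14 ± 0.08 in CV minus KO (limma adjusted p = 0.502) and 0.15 ± 0.08 in R47H minus KO (adjusted p = 0.907). The latter was 0.23 without KO mouse 1 and -0.11 with the oligodendrocyte score as a covariate, which separates R47H from KO completely. Eif4ebp2, its relative, averaged 8.69 ± 0.03 in KO, 8.56 ± 0.12 in CV and 8.72 ± 0.03 in R47H.

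Among the energy and stress sensors, Ddit4, an inhibitor of mTORC1 that is induced by low oxygen and glucocorticoids and is described here after its values were seen, read 6.49, 6.70 and 6.47 in KO, 5.74, 6.57 and 5.86 in CV and 6.21, 7.39 and 6.04 in R47H. Mouse 2 was the highest of each group, and R47H mouse 2 stood far above the other R47H mice. Its values spanned 1.65, the most of the 44 genes. The differences were -0.50 ± 0.31 in CV minus KO and 0.49 ± 0.31 in R47H minus CV (limma adjusted p = 0.554 and 0.583), and the groups overlapped. The SD between mice was 0.13 in KO, 0.44 in CV and 0.73 in R47H. Sesn2, a leucine sensor of the sestrin family that restrains mTORC1, read 6.84, 6.87 and 7.16 in KO, 6.96, 7.10 and 6.86 in CV and 6.39, 6.76 and 6.78 in R47H. The R47H mice lay below all mice of the other groups, narrowly except for the female. The difference was -0.31 ± 0.11 in R47H minus KO (adjusted p = 0.723) and -0.33 ± 0.11 in R47H minus CV (adjusted p = 0.284), and 0.02 ± 0.11 in CV minus KO. With the oligodendrocyte score as a covariate these R47H differences were -0.15 ± 0.27 and -0.12 ± 0.33, and with the neutrophil score R47H minus CV was -0.16 ± 0.14. Both scores separate R47H from CV completely, and the oligodendrocyte score also from KO, so group and markers cannot be told apart in these fits. Sesn2 was the single member whose groups did not overlap in R47H minus KO (2.27% of 44, against 7.11% of all tested genes, 3.27% lower and 3.84% higher). Equal values count as overlap in these shares. Pdpk1, Tsc1, Atg16l1, Atg7 and Atg4b in R47H met KO only at an equal value. Sesn1 and Prkaa1, the latter a catalytic subunit of the AMP-activated kinase, averaged 8.75 and 7.55 in KO, 8.74 and 7.54 in CV and 8.84 and 7.62 in R47H.

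**Figure D3:**
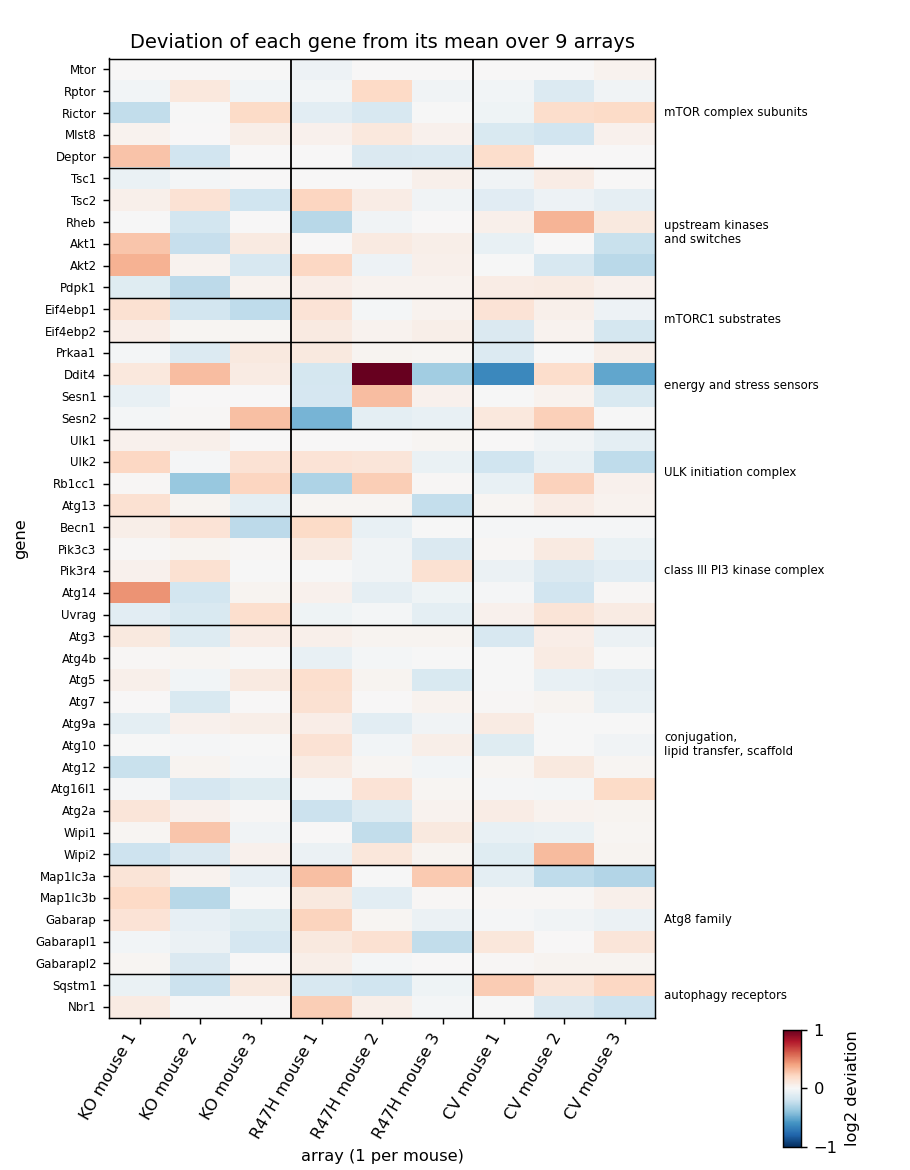
Log2 deviation of each of the 44 genes (y axis, grouped by role) from its own mean over the 9 arrays (x axis, 1 array per mouse), blue for lower and red for higher. Most cells are pale, and the darkest belong to Ddit4, whose values span 1.65.

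In the kinase complex that starts autophagy, Ulk2 (10386789) read 9.10, 8.89 and 9.04 in KO, 8.70, 8.82 and 8.64 in CV and 9.03, 9.02 and 8.83 in R47H. The CV mice lay below all mice of both other groups, CV mouse 2 narrowly so (8.820, beside 8.830 in R47H mouse 3). The difference in CV minus KO, -0.29 ± 0.09, had the smallest p of the module in that comparison and did not pass over all genes (limma adjusted p = 0.209). R47H minus CV was 0.24 ± 0.09 (adjusted p = 0.32) and R47H minus KO -0.05 ± 0.09. Ulk1, the better known of the ULK kinases, averaged 7.31 ± 0.03 in KO, 7.24 ± 0.05 in CV and 7.29 ± 0.01 in R47H. The scaffolds Rb1cc1 and Atg13 averaged 7.02 and 7.28 in KO, 7.13 and 7.30 in CV and 7.05 and 7.18 in R47H.

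The class III PI3 kinase complex, which marks the site where the autophagic membrane grows, had 0 of 5 genes called. Its regulatory subunit Pik3r4 averaged 7.26 ± 0.08 in KO, 7.10 ± 0.04 in CV and 7.23 ± 0.10 in R47H. The CV mice lay below all others, CV mouse 1 narrowly so (CV minus KO -0.16 ± 0.08, limma adjusted p = 0.428). The kinase Pik3c3 averaged 7.58, 7.54 and 7.58 and its partner Becn1 7.04, 7.09 and 7.04 in KO, R47H and CV. Atg14, which directs the complex to autophagy, averaged 7.09, 6.96 and 6.92 in KO, R47H and CV, and Uvrag, which directs it to endosomes and late steps, 8.48, 8.46 and 8.60.

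Of the 11 genes for conjugation, lipid transfer and the scaffold of the membrane, 0 had groups that did not overlap in any of the 3 comparisons. Of all tested genes 14%, 7.11% and 14.9% did not overlap in CV minus KO, R47H minus KO and R47H minus CV. Equal values count as overlap. In R47H minus KO the groups met only at an equal value for Atg16l1, Atg7 and Atg4b, and for Atg4b also in R47H minus CV. Their differences ran from -0.13 to 0.18 in CV minus KO, from -0.16 to 0.15 in R47H minus KO and from -0.15 to 0.11 in R47H minus CV. Atg2a, which moves lipid into the growing membrane, read 7.55, 7.48 and 7.45 in KO, 7.51, 7.47 and 7.46 in CV and 7.22, 7.30 and 7.46 in R47H. R47H mice 1 and 2 were the lowest, and mouse 3 lay among the other groups (R47H minus KO -0.16 ± 0.08, limma adjusted p = 0.905). This difference was -0.09 without R47H mouse 1 and -0.26 ± 0.20 with the oligodendrocyte score, which separates R47H from KO completely. Atg16l1, part of the enzyme that attaches Atg8 proteins to lipid, read 6.47, 6.32 and 6.37 in KO, 6.47, 6.47 and 6.68 in CV and 6.47, 6.63 and 6.51 in R47H. It stood 0.15 ± 0.09 above KO in R47H and in CV (adjusted p = 0.907 and 0.506), and 0.23 above it in R47H without KO mouse 1. Atg5, Atg7, Atg12, Atg3 and Atg10, the other conjugation genes beside the protease Atg4b, differed by at most 0.12 in either direction. Atg4b itself averaged 6.35 in KO, 6.37 in CV and 6.31 in R47H, and Atg9a, the membrane protein of the seed vesicles, 7.25 in KO, 7.27 in CV and 7.23 in R47H. The phosphoinositide readers Wipi1 and Wipi2 averaged 6.37 and 6.91 in KO, 6.24 and 7.08 in CV and 6.23 and 7.04 in R47H.

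Sequence in front of some of these genes carries CACGTG, the core of the element bound by TFEB, the transcription factor of lysosomal and autophagy genes that mTORC1 keeps out of the nucleus. The motif reads the same on both strands and was searched in the 250 bases before each annotated start (RefSeq, GRCm38.p6). A promoter was on file for 36 of the 44 genes, 43 promoters in all, and 4 of these held the motif (9.3%, against 6.02% of all 32851 promoters). The stretches are shown so that each motif can be seen in its context, with the motif in capitals, 5′ to 3′ on the strand of the gene. Both Atg3 stretches overlap and come from 1 promoter.
Atg3, chr16:45158718-45158757, plus strand: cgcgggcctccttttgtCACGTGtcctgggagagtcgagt
Atg3, chr16:45158741-45158780, plus strand: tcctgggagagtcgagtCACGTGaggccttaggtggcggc
Atg5, chr10:44268299-44268338, plus strand: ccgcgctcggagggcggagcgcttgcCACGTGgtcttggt
Atg7, chr6:114670947-114670986, plus strand: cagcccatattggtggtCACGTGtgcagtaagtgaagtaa
Rheb, chr5:24842435-24842474, minus strand: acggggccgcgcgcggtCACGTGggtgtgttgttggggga

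These 4 genes did not share a direction. In CV minus KO Atg3 stood at -0.07, Atg5 at -0.09, Atg7 at 0.04 and Rheb at 0.22, and none was called. In R47H minus KO they stood at 0.02, -0.02, 0.11 and -0.04. A match is a description of the sequence and no evidence of binding.

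The Atg8 family held the smallest p of the module. Map1lc3a (10477637), a form of the LC3 protein that coats autophagic membranes, read 7.71, 7.61 and 7.49 in KO, 7.48, 7.32 and 7.28 in CV and 7.88, 7.57 and 7.84 in R47H. The CV mice lay below all others, CV mouse 1 narrowly so (7.477, beside 7.494 in KO mouse 3), and the R47H mice overlapped with KO. R47H minus CV was 0.41 ± 0.08 SE, 1.32-fold, with a 95% interval of 0.22 to 0.59, and missed the threshold (limma adjusted p = 0.0792, unadjusted p = 0.000863). CV minus KO was -0.24 ± 0.08 (adjusted p = 0.251) and R47H minus KO 0.16 ± 0.08 (adjusted p = 0.907), or 0.09 without R47H mouse 3. With limma's array weights R47H minus CV was 0.41 ± 0.08 and passed (limma adjusted p = 0.0429). The weights ran from 0.49 for KO mouse 2, which is in neither of these groups, to 1.38 for R47H mouse 1.

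Oligodendrocyte markers moved with this result. All 8 tested were higher in R47H than in CV, 5 of them called (0.797% of all tested genes were), at a median difference of 1.18. The 4 tested astrocyte markers were also higher in R47H, with groups that did not overlap, at a median difference of 0.87. In KO and in R47H the order of the mice by Map1lc3a was that by the summed oligodendrocyte level, and in CV it was not. The female read highest for Map1lc3a in each group, and her oligodendrocyte level was the highest in KO and in R47H. The part of sex in this order was not tested. With the oligodendrocyte score as a covariate the R47H minus CV difference of Map1lc3a was 0.19 ± 0.23 (limma adjusted p = 0.999) and R47H minus KO was -0.0092 ± 0.19 (adjusted p = 0.997). With the neutrophil score R47H minus CV was 0.37 ± 0.12 (limma adjusted p = 0.713). Both scores separate R47H from CV completely, and the oligodendrocyte score also separates R47H from KO. Group and markers can therefore not be told apart in these fits.

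Map1lc3b, the most studied LC3 gene, differed by -0.02 ± 0.10 in R47H minus CV, at 9.61 ± 0.24 in KO, 9.67 ± 0.02 in CV and 9.64 ± 0.10 in R47H, and its further probe set gave R47H minus CV 0.02. Gabarap, another Atg8 protein, read 11.88, 11.65 and 11.61 in KO, 11.72, 11.70 and 11.68 in CV and 11.96, 11.76 and 11.68 in R47H. The female was the highest in each group, and the groups overlapped. Gabarapl1 averaged 7.10, 7.19 and 7.27 in KO, R47H and CV, and Gabarapl2 8.73, 8.78 and 8.79. The probe sets of Gabarapl2 disagreed in sign in CV minus KO, at 0.06 and -0.13.

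Of the cargo receptors, Sqstm1 (10385572), which links ubiquitin-tagged cargo to the Atg8 proteins and is itself degraded by autophagy, read 10.32, 10.16 and 10.48 in KO, 10.63, 10.51 and 10.59 in CV and 10.22, 10.18 and 10.34 in R47H. The 3 CV mice lay above all others, with KO mouse 3 next by a narrow margin. The difference was 0.26 ± 0.09 in CV minus KO (limma adjusted p = 0.287), -0.33 ± 0.09 in R47H minus CV (adjusted p = 0.216) and -0.07 ± 0.09 in R47H minus KO. The 4 mice with the highest Sqstm1 were also the 4 with a summed neutrophil level of 13.51 or more, KO mouse 3 among them. The same 4 had the highest summed monocyte level of all mice, at 10.37 or more. Within each group the order of the mice by Sqstm1 was not that by the neutrophil level, and in CV it was the reverse. With the neutrophil score as a covariate CV minus KO was 0.07 ± 0.10 and R47H minus CV -0.13 ± 0.11 (adjusted p = 0.999 and 0.891). This score separates R47H from CV completely, so group and markers cannot be told apart there. In CV minus KO only KO mouse 3 reached the CV range of the score. With the oligodendrocyte score R47H minus CV was 0.04 ± 0.25. Without KO mouse 3, whose neutrophil markers stood apart from those of its group, CV minus KO was 0.35 ± 0.09 for Sqstm1, -0.27 ± 0.09 for Map1lc3a and -0.26 ± 0.10 for Ulk2 (limma adjusted p = 0.124, 0.236 and 0.29).

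**Figure D4:**
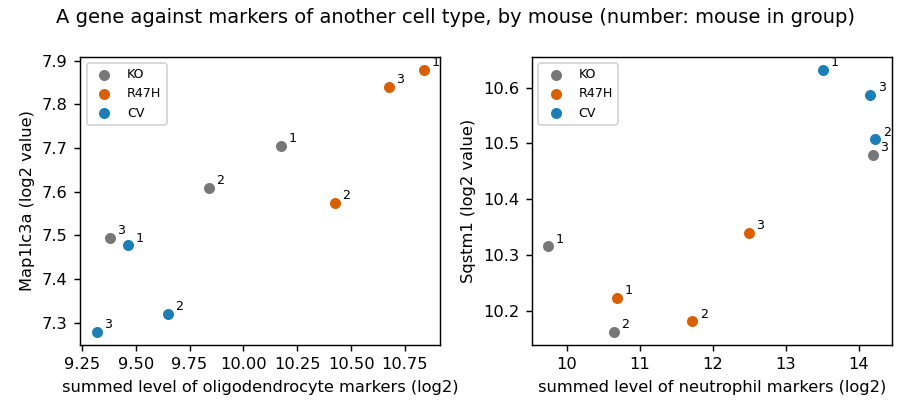
Left, Map1lc3a (y axis, log2 value) against the summed level of 9 oligodendrocyte markers (x axis, log2); right, Sqstm1 against that of 12 neutrophil markers; each point is 1 mouse, coloured by group and numbered. R47H mice lie at the right on the left panel (10.42 to 10.84), and the CV mice and KO mouse 3 lie together at the upper right on the right panel.

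Nbr1, another receptor for ubiquitin-tagged cargo, ran opposite to Sqstm1 in the sign of each difference. It read 7.999, 7.91 and 7.92 in KO, 7.91, 7.77 and 7.71 in CV and 8.17, 7.98 and 7.90 in R47H. The ranges overlapped in both comparisons with R47H, while KO and CV met only at an equal value (7.9148 in KO mouse 2 and CV mouse 1). R47H minus CV was 0.21 ± 0.07 (limma adjusted p = 0.25) and CV minus KO -0.15 ± 0.07 (adjusted p = 0.396).

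**Figure D5:**
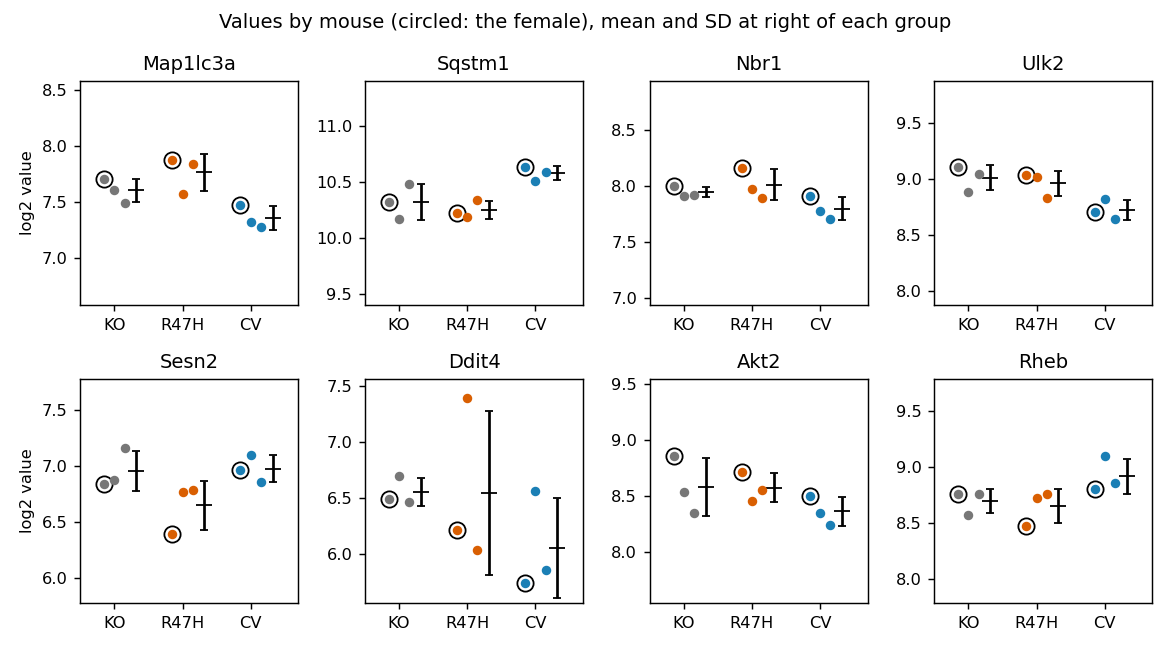
Log2 values of 8 genes by mouse (points, the female circled), with the group mean and SD (n = 3) at the right of each group; all panels span 2 log2 units. The CV mice lie apart from the rest for Map1lc3a, Sqstm1, Ulk2 and Rheb by margins that are small beside the panel height, and Ddit4 shows the widest spread.

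Counting genes whose groups did not overlap gave 7 of 44 in CV minus KO, 4 higher (Sqstm1, Rheb, Pdpk1 and Gabarapl1) and 3 lower (Ulk2, Map1lc3a and Pik3r4), which is 15.9% beside 14% of all tested genes (5.9% higher and 8.05% lower). In R47H minus CV it gave 8, 4 higher (Map1lc3a, Ulk2, Pik3r4 and Tsc2) and 4 lower (Sqstm1, Sesn2, Rheb and Uvrag), which is 18.2% beside 14.9% (8.74% higher and 6.17% lower). Both comparisons use the same CV arrays, so a CV level that stands apart counts in both. The shares were close to those of all genes. Equal values counted as overlap, among members and all genes alike. In CV minus KO the groups met only at an equal value for Mtor, Rptor, Ulk1 and Nbr1. In R47H minus CV they did so for Mtor, Mlst8, Deptor, Akt1, Ulk1, Atg13 and Atg4b.

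Wider lists of the same pathways were read in the same way. Of 50 tested genes of the wider mTOR pathway 0 were called in any comparison, with 9, 3 and 3 at an unadjusted p under 0.05 in CV minus KO, R47H minus KO and R47H minus CV (18%, 6% and 6%, beside 13.2%, 5.68% and 12.4% of all tested genes). Groups did not overlap for 16%, 8% and 10% of them, beside 14%, 7.11% and 14.9%. In CV minus KO 8 of the 9 were lower and 1 higher, where 750 of all tested genes were lower and 672 higher. Without overlap 7 were lower and 1 higher (8.05% and 5.9% of all genes). In R47H minus CV 1 was lower and 4 higher without overlap (6.17% and 8.74%). Eef2k, the kinase that slows translation elongation and is held back downstream of mTORC1, averaged 8.11 ± 0.07 in KO, 7.77 ± 0.10 in CV and 7.99 ± 0.05 in R47H, and CV minus KO was -0.34 ± 0.07 (limma adjusted p = 0.0699). Prr5l, a partner of mTORC2, averaged 5.72 ± 0.15 in KO, 6.22 ± 0.23 in CV and 6.19 ± 0.09 in R47H, with 0.50 ± 0.12 in CV minus KO and 0.48 ± 0.12 in R47H minus KO (adjusted p = 0.112 and 0.398). Nprl3, of the complex that restrains mTORC1 when amino acids are short, stood at -0.30 ± 0.08 in CV minus KO and -0.23 ± 0.08 in R47H minus KO. Lamtor2, part of the lysosomal anchor of mTORC1, stood at 0.23 ± 0.09 in R47H minus KO. Its partner Lamtor1 and the folliculin partner Fnip1 stood at 0.27 ± 0.10 and -0.27 ± 0.08 in R47H minus CV (adjusted p = 0.305 and 0.226).

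Of 41 tested genes of the wider autophagy machinery 0 were called, with 8, 1 and 7 at an unadjusted p under 0.05 (19.5%, 2.44% and 17.1%, beside 13.2%, 5.68% and 12.4%). Bnip3, a mitophagy receptor induced by low oxygen, averaged 8.48 ± 0.21 in KO, 8.04 ± 0.12 in CV and 8.30 ± 0.19 in R47H (CV minus KO -0.45 ± 0.09, limma adjusted p = 0.0717). Its relative Bnip3l stood at 0.29 ± 0.08 in R47H minus CV, and Pink1, a kinase that flags damaged mitochondria, at -0.21 ± 0.06 in CV minus KO and 0.21 ± 0.06 in R47H minus CV (adjusted p = 0.205 and 0.224). Bcl2, which binds Becn1 and also blocks apoptosis, stood at 0.48 ± 0.11 in CV minus KO and 0.36 ± 0.11 in R47H minus KO (adjusted p = 0.106 and 0.618). Rubcn, an inhibitor of late autophagy, stood at 0.23 ± 0.07 in R47H minus CV, and Zkscan3, a repressor of autophagy genes, at -0.16 ± 0.08 in R47H minus KO. Groups did not overlap for 7 of the 41 in CV minus KO (17.1%, beside 14% of all tested genes), for 3 in R47H minus KO (7.32%, beside 7.11%) and for 10 in R47H minus CV (24.4%, beside 14.9%). In CV minus KO 6 of these were lower and 1 higher (8.05% and 5.9% of all genes). In R47H minus CV 1 was lower and 9 higher (6.17% and 8.74%). By unadjusted p 6 were lower and 2 higher in the former, and 0 lower and 7 higher in the latter. Both use the same CV arrays.

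The ATF4 program, through which cells answer a lack of amino acids and which mTORC1 also drives, had 0 of 21 called, with 5, 0 and 4 at an unadjusted p under 0.05 (23.8%, 0% and 19%, beside 13.2%, 5.68% and 12.4%). Groups did not overlap for 23.8%, 4.76% and 19% of them, beside 14%, 7.11% and 14.9%. Slc7a11, the cystine importer, stood at 0.50 ± 0.11 in CV minus KO and -0.33 ± 0.11 in R47H minus CV (limma adjusted p = 0.0872 and 0.284). Psat1 and Psph, enzymes that make serine, stood at -0.59 ± 0.16 and -0.25 ± 0.09 in CV minus KO (adjusted p = 0.147 and 0.296). Atf4 itself averaged 10.05 ± 0.29 in KO, 10.31 ± 0.17 in CV and 10.03 ± 0.15 in R47H. In R47H minus KO Psat1, Mthfd2 and Nupr1 stood at -0.29, 0.13 and 0.13, with adjusted p of at least 0.907.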

How the data were processed

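The deposited values cover 35556 probe sets on each of 9 arrays and were taken as log2 from their range (1.31 to 13.9). Neither labels nor file headers state how the authors corrected background, normalized or summarised probes. Per the labels' protocols, 2 ng of total RNA was labelled per mouse. Probe sets with a single gene symbol (21789) named genes, and the one with the highest mean stood for a gene. Genes whose mean reached the median of all probe sets were tested. limma 3.58.1 in R 4.3.3 (lmFit, eBayes) was fitted to all 9 arrays with terms for genotype and sex (5 residual and 3.73 prior degrees of freedom), two-sided, and first tested on simulated data. With 3 mice against 3 an exact permutation test cannot go below p = 0.10. The number of arrays limits the precision, and no scan dates or slides were used. Full values are given for the 6 members with the smallest p in each comparison and the highest and lowest by mean, Mtor and Ddit4 were added after their values were seen, and up to 3 genes of each wider list are named per comparison. A marker score was the mean deviation of its tested genes from their means. The oligodendrocyte score separates R47H from both other groups completely, and the neutrophil score separates R47H from CV. In both scores KO mouse 3 alone of the KO mice lay within the CV range. The members, lists and alternatives were chosen with earlier results of these data known. Probe sequences were not used, so cross-hybridisation between close relatives such as the LC3 genes was not checked. Means of different probe sets served only to choose which to describe and are no ranking of expression.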

Additional observations from a re-analysis of the deposited data

How the results depend on the processing

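Each result was recomputed under 22 alternatives, or 21 for the F-test (none from 2 groups alone) and for Sesn2 and Atg16l1 (below the 75th percentile). No member was called in CV minus KO, R47H minus KO or by the F-test under any of them (limma; lowest adjusted p 0.124, 0.485 and 0.078), and 1 was called in R47H minus CV, Map1lc3a with array weights. With each mouse left out in turn the count of called members was 0 to 0 in every comparison, and the Map1lc3a difference in R47H minus CV ran from 0.33 to 0.48. Of 18 named differences 15 kept their direction throughout, and 3 turned with the oligodendrocyte score as a covariate. These were Map1lc3a (-0.0092) and Eif4ebp1 (-0.11) in R47H minus KO and Sqstm1 (0.0416) in R47H minus CV. That score separates R47H from both other groups completely, and the cause was not tested. With the replicate block (mouse number in place of sex) 0 members were called in each comparison (lowest adjusted p 0.102 in R47H minus CV). Correlations of same-numbered deviations were 0.32 to 0.36 for mouse 1, the female of every group, 0.15 to 0.21 for mouse 3, and 0.001, -0.04 and 0.20 for mouse 2 (KO with R47H, KO with CV, R47H with CV). All 3 exceeded 0.1 between R47H and CV but not in the comparisons with KO, the labels name no shared litter or day, and whether the numbers pair mice is unsettled. The block changed no call of a member. The count of genes called over all genes, against which members are read, moved more: 131 in CV minus KO ran from 22 to 172, 9 in R47H minus KO from 0 to 15 and 86 in R47H minus CV from 0 to 132. The 0 counts came with the oligodendrocyte score in both comparisons with R47H and without R47H mouse 3 in R47H minus KO. Leaving out 1 mouse moved these counts by over 1.5 times as follows: CV minus KO to 59 to 75 without KO mouse 1 or 2 or any CV mouse, R47H minus KO to 0 to 5 without any KO or R47H mouse or CV mouse 3, and R47H minus CV to 9 to 37 without any R47H or CV mouse and to 132 without KO mouse 3.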
